A study of Homo sapiens with 9 samples.

Results

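TNC encodes tenascin-C, a large glycoprotein of the extracellular matrix. Its Ago-HITS-CLIP peaks were defined as every peak whose midpoint lay, on the strand of the gene, inside the TNC gene body on hg19. The rule found 9 peaks of 8460 in the 2 deposited lists. All 9 came from the 3450 peaks of the miR-342-3p mimic, and none came from the 5010 peaks of the miR-342-5p mimic. TNC was chosen on the number of its peaks in these same lists, so those numbers describe the choice and carry no test.

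Tenascin-C is laid down in the matrix of embryos, wounds and tumours, and breast cancer cells that seed distant organs are known for making it. Each chain opens with an assembly domain and continues through epidermal growth factor (EGF)-like repeats, fibronectin type III repeats and a fibrinogen-like globe. The EGF-like repeats are short modules held together by cysteine bridges, and the fibronectin repeats include a block that alternative splicing adds or removes. A miRNA guides Argonaute (Ago) to mRNAs, mainly by pairing of its seed, bases 2 to 8, and Ago crosslinked to the RNA marks the places where it sat.

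MDA-MB-231 is an established human triple-negative breast cancer (TNBC) cell line, and 231HM is a subline of it with high metastatic capacity. Cells received 20 nM of a miR-342-3p mimic, a miR-342-5p mimic or a negative control mimic, in 3 libraries each, and were crosslinked by UV light after 48 h. The 9 libraries thus shared the cell line, the lipid transfection and the Ago2 antibody, and differed in the mimic. The authors merged the replicates of each mimic and called peaks against the negative control libraries, which both lists share. Each peak has a start, an end, a summit and a score, described as the reads above background, with a lowest value of 5 in either list. Values of single libraries were not analysed here, so no replicate error could be attached to a peak, and read depth is unknown. How far a score follows the amount of TNC mRNA and how far it follows Ago occupancy cannot be told apart in such a list. Because TNC was picked for its peaks and single peaks are not replicates, counts and shares below stand beside the same measure over the whole list, without p-values.

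The mature sequences of the transfected strands, from RefSeq, are shown because every match described for TNC is a match to one of them. Capitals mark the seed.
miR-342-3p: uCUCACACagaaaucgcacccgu
miR-342-5p: aGGGGUGCuaucugugauuga
A 7mer site of miR-342-3p reads GUGUGAG (pairing with the whole seed) or UGUGAGA (6 seed bases and an A opposite base 1), and the 8mer holds both. For miR-342-5p the 7mers are GCACCCC and CACCCCA. Besides these seed sites, the words UGUGUG, which pairs with bases 4 to 9 of miR-342-3p, and UGUGUGA, which pairs with bases 3 to 9, were counted.

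The 9 miR-342-3p peaks of TNC lay in a single exon. TNC occupies chr9:117781854-117880486 on the minus strand of hg19 (98633 nt), and its reference transcript has 28 exons, an mRNA of 8500 nt and 2201 codons before the stop. Every peak fell in exon 3, chr9:117848143-117849552, a coding exon of 1410 nt that makes up 16.6% of the mRNA and 21.3% of the coding sequence. The share of peaks in coding exons was thus 100% (9 of 9, 95% Wilson interval 70.1 to 100%, counting error only), against 55.1% of the whole miR-342-3p list. Peaks that share an exon are not independent, so the interval is no test against the list. The other 27 exons held 0 peaks, as did the introns, the 5′UTR of 312 nt and the 3′UTR of 1582 nt. Exon 3 is present in 5 of the 5 basic annotated transcripts, whereas each of exons 11 to 17, which encode the alternatively spliced fibronectin repeats, is present in 1 to 3 of them.

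**Figure D1:**
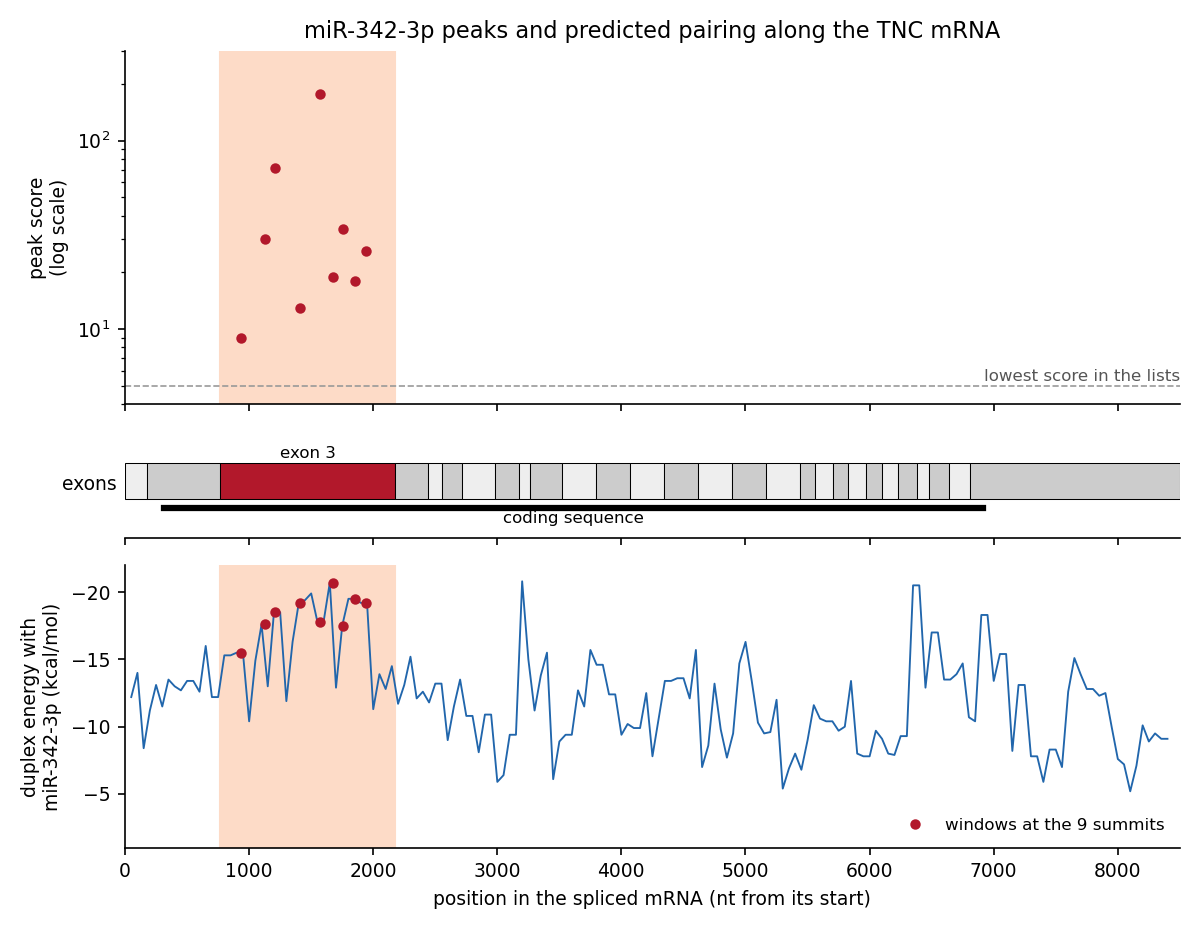
Positions along the spliced TNC mRNA (nt from its start). The upper panel plots the score of each of the 9 miR-342-3p peaks at its summit on a log scale, the middle panel the 28 exons, and the lower panel the predicted duplex energy with miR-342-3p in 101-nt tiles (line) and at the 9 summits (points), with more stable pairing upwards. All 9 peaks lie in the shaded exon 3, with scores from 9 to 176.

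Exon 3 encodes residues 153 to 623, and with them the whole array of EGF-like repeats. A search of the protein for the spacing of 6 cysteines that defines the module found 14 repeats, all in this exon, each of 93 or 96 nt except the last, which was cut at its final cysteine at 81 nt. A shorter signature of the end of the module matched 15 times, also all in this exon, so repeats are numbered here by the search for 6 cysteines alone. Peaks covered 994 nt of the exon, or 70.5%. No summit fell outside a repeat, and 9 of the 14 repeats held exactly 1 summit each. These were repeats 1, 3, 4, 6, 8, 9, 10, 11 and 12. Repeats 2, 5 and 7 lay wholly or partly under a peak with its summit in a neighbour, and repeats 13 and 14 had 0 nt under any peak.

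From 5′ to 3′, the peak of repeat 1 had a score of 9 (chr9:117849348-117849452) and that of repeat 3 a score of 30 (chr9:117849159-117849333). The peak of repeat 4 scored 72 (chr9:117849082-117849156), the second highest of the gene. A score of 13 followed in repeat 6 (chr9:117848881-117849009). The highest score, 176, belonged to the peak whose summit at position 117848748 lay in repeat 8 (chr9:117848689-117848879), and which also spanned repeat 7. The remaining 4 scored 19 in repeat 9 (chr9:117848597-117848687), 34 in repeat 10 (chr9:117848522-117848595), 18 in repeat 11 (chr9:117848412-117848514) and 26 in repeat 12 (chr9:117848359-117848409). The scores thus did not run in one direction along the array.

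The median score was 26, against 24 for the 1900 coding peaks of the list, and 5 of the 9 lay above that list median. The peak of 176 was higher than 94.8% of the coding peaks, the peak of 72 higher than 83.9%, and the peak of 9 higher than 4.05%. The peak of 176 alone held 44.3% of the 397 score units summed over the gene. The scores of TNC thus ran from low to high within the list, with 2 above 50, of which 1 was above 100.

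**Figure D2:**
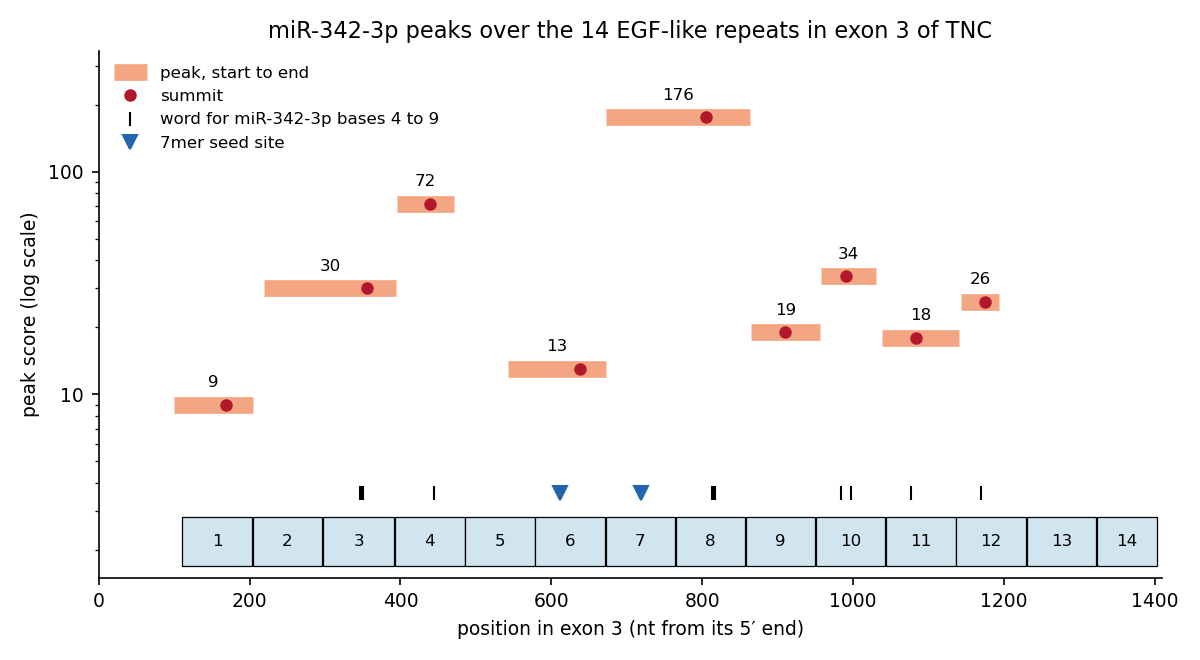
Exon 3 of TNC, with position in nt from its 5′ end on the horizontal axis and peak score on a log scale on the vertical axis. Bands are the 9 miR-342-3p peaks from start to end with the score written above, circles their summits, boxes the 14 EGF-like repeats, ticks the word that pairs with miR-342-3p bases 4 to 9, and triangles the 7mer seed sites. Ticks stand near summits, whereas repeats 13 and 14 carry neither ticks nor peaks.

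The peaks were 51 to 191 nt wide (median 103 nt) and almost touched one another. Of the 8 gaps between neighbours, 6 were shorter than 10 nt, with a range of 1 to 72 nt. A neighbour nearer than 10 nt was found for 8 of the 9 TNC peaks, against 17.1% of the miR-342-3p list (590 of 3450). How the caller divided one stretch of reads into several peaks was not tested. Summits were spaced by 80 to 199 nt, and the 5 pairs of summits in adjacent repeats were 80 to 105 nt apart, close to the 93 nt of a repeat.

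Within a repeat, the summits kept to one part. Counted from the first base of the codon of the third cysteine, they lay 8 to 29 nt downstream, with a mean of 17.4 ± 8.86 nt (SD over the 9 summits). Peak midpoints, which also depend on where a peak was ended, ranged from -26 to 23 nt on the same scale. The stretch of 10 codons that starts just before the third cysteine held 7 of the 9 summits. The RNA of this stretch is shown for 10 repeats, because it carries the words that pair with miR-342-3p. Sequences are from hg19, minus strand, written as RNA, and capitals mark runs of 6 or more bases that can form unbroken Watson-Crick pairs with miR-342-3p. The first group holds the repeats with a summit except repeat 1, which had a run of 6 bases but no UGUGUG and no 7mer site. Repeat 9 had no UGUGUG and no 7mer site either, but is shown and holds the 6mer UGUGAG.
Repeat 3, chr9:117849197-117849226: acauguguagauggcuUGUGUGUGUGccac
Repeat 4, chr9:117849104-117849133: cgaugcguggagaaugagugcgUGUGUGAu
Repeat 6, chr9:117848918-117848947: cgGUGUGAGgaggggcaguguguaugugau
Repeat 8, chr9:117848732-117848761: cgCUGUGUcaaugggcagUGUGUGUGUGAu
Repeat 9, chr9:117848639-117848668: cgCUGUGUcgagggcaaauguguaUGUGAG
Repeat 10, chr9:117848546-117848575: cgCUGUGUGAauggcaUGUGUGuuugugau
Repeat 11, chr9:117848453-117848482: cUCUGUGUGgacggacagugcgUCUGUGAG
Repeat 12, chr9:117848360-117848389: cgCUGUGUGAaugggcagugcgugugccau
The remaining 2 are repeats that held no summit. Repeats 2, 5 and 14 held none either, had no capitals in this stretch and are not shown. Repeat 7 lies under the peak of 176 and repeat 13 outside all peaks.
Repeat 7, chr9:117848825-117848854: cgCUGUGUagacgggcgGUGUGAGUGUGAu
Repeat 13, chr9:117848267-117848296: cgcugcguggacggccagugcaucugccac
A longer stretch of capitals, as in repeats 7 and 8, is made of runs that overlap. Repeat 13, which encodes the same module, had no capitals.

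**Figure D3:**
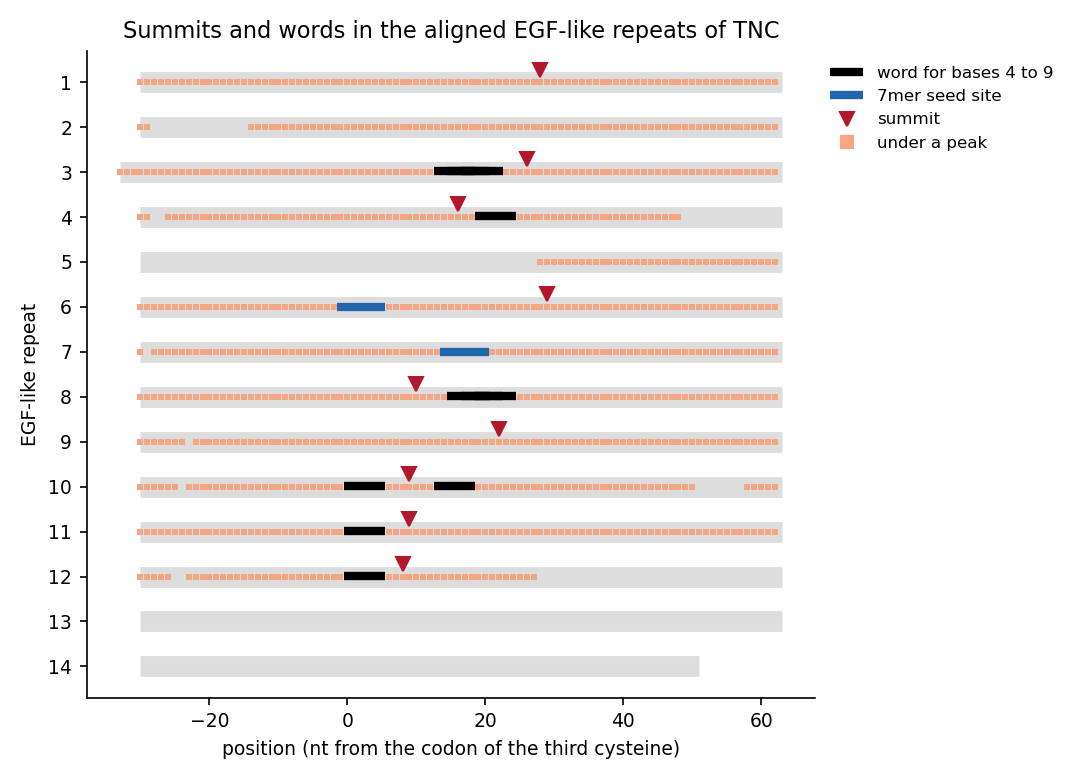
The 14 EGF-like repeats of TNC (grey bars, top to bottom) aligned at the codon of the third cysteine, with position in nt on the horizontal axis. Orange marks bases under a miR-342-3p peak, red triangles summits, black bars the word for miR-342-3p bases 4 to 9 and blue bars 7mer seed sites. All 9 summits lie 8 to 29 nt after the third cysteine codon, and black bars occur only in repeats with a summit.

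Seed sites were scarce at these peaks. The TNC mRNA held GUGUGAG at 2 places, UGUGAGA at 0 and so no 8mer, and both 7mers were in exon 3. The site in repeat 6 (chr9:117848939-117848945) lay 27 nt upstream of the summit of the peak that scored 13. The site in repeat 7 (chr9:117848831-117848837) lay under the peak of 176, but 81 nt from the nearest summit. A 7mer within 50 nt of the summit was therefore present at 1 of 9 peaks (11.1%, Wilson interval 1.99 to 43.5%), against 16.3% of all coding miR-342-3p peaks (310 of 1900). The interval treats the 9 peaks as independent, although all lie in exon 3, so the TNC share was not tested against that of the list. The 6mer UGUGAG occurred 4 times in the mRNA, each time in exon 3 and under a peak, and at repeats 9 and 11 it was the only seed match near the summit.

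The offset words were more frequent. UGUGUG lay within 50 nt of the summit at 6 of the 9 peaks (66.7%, interval 35.4 to 87.9%), the same 6 as within 25 nt, against 27.8% of coding miR-342-3p peaks (529 of 1900). The complementary strand of those windows held it at 0 of 9 peaks, which allows a share of up to 29.9%, and in the list at 29 of 1900. Among coding miR-342-5p peaks the share was 1.9% (67 of 3523). UGUGUGA was present at 4 of 9 peaks (44.4%, interval 18.9 to 73.3%), against 17.3% of the coding miR-342-3p list (329 of 1900). The intervals count each peak once, although the repeats of TNC are copies of one module and their words are not independent.

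**Figure D4:**
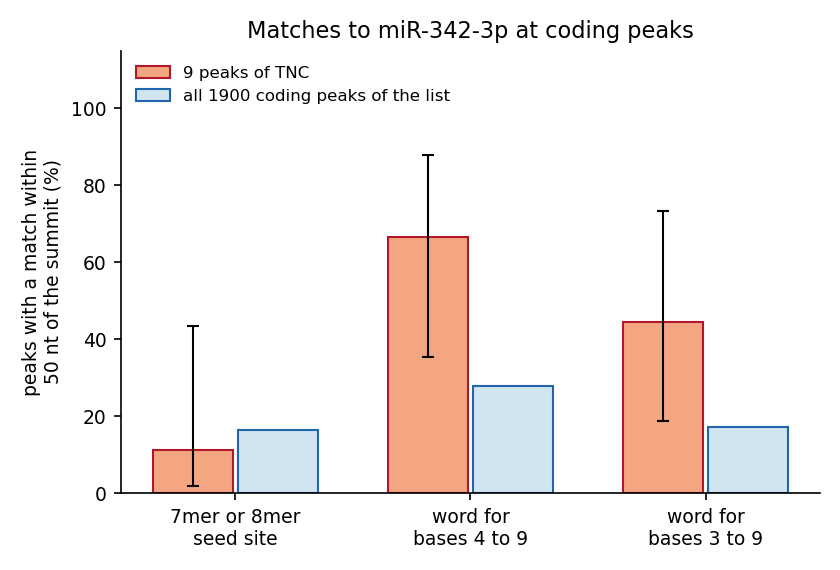
Share of peaks (%) with a match to miR-342-3p within 50 nt of the summit, for the 9 peaks of TNC and all 1900 coding miR-342-3p peaks, which include them. Error bars are 95% Wilson intervals for TNC (counting error only). The seed-site share of TNC was 11.1% against 16.3%, and that of the word for bases 4 to 9 was 66.7% against 27.8%.

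The mature TNC mRNA held these words nowhere else. UGUGUG matched exon 3 at 11 positions, which overlap into 7 separate places in 6 repeats, all under a peak and within 25 nt of a summit, and the other 26 coding exons, with 5196 nt, held 0. The 4 copies of UGUGUGA lay in repeats 4, 8, 10 and 12, at the summits that scored 72, 176, 34 and 26. These include the 3 highest scores of the gene. The introns, in contrast, held 57 overlapping or separate copies of UGUGUG and 10 of UGUGUGA, including 3 unbroken runs of G and U of 12, 19 and 33 nt, and had no peak. Introns are removed during splicing, and their abundance in the crosslinked RNA was not measured.

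Among the repeats, the words and the summits went together. Of the 9 repeats with a summit, 6 held UGUGUG and 4 held UGUGUGA, and of the 5 repeats without a summit none held either word. The longest run of bases that could pair with miR-342-3p was 6 to 8 nt in repeats with a summit (median 7) and 4 to 7 nt in those without (median 5). A run of 7 or more was present in 6 of the 9 and in 1 of the 5. The exception among the latter was repeat 7, with its 7mer site and its place under the peak of 176.

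Pairing near the summits sat downstream of the first bases of the seed. Within 25 nt of the summit, the longest run covered miR-342-3p bases 3 to 10 in repeats 10 and 12, bases 4 to 11 in repeat 11, bases 3 to 9 in repeats 4 and 8, and bases 4 to 9 in repeat 3. Where runs of equal length tied, the one with the earliest miRNA base is given. In repeat 9 the longest run covered bases 2 to 7, the seed without base 8, in a tie with another run. It covered bases 3 to 7 in repeat 6, again in a tie, and bases 6 to 11 in repeat 1, and these 2 peaks had the lowest scores, 13 and 9. The 7mer site of repeat 6 lay 27 nt from the summit, just outside the 25 nt searched. The centre of the run was 1.5 to 12 nt from the summit, upstream of it at 6 peaks and downstream at 3.

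Predicted duplexes were more stable over exon 3 than over most of the mRNA, but did not follow the peak scores. RNAduplex energies of miR-342-3p with the 101 nt around each summit ran from -20.7 kcal/mol in repeat 9 to -15.5 kcal/mol in repeat 1, with a median of -18.5 kcal/mol. The peak of 176 had -17.8 kcal/mol, less stable than that median, and the peak of 9 in repeat 1 had the least stable value. Tiles of the same length along the whole mRNA had a median of -12.25 kcal/mol (168 tiles, -20.8 to -5.2). Of the 11 tiles more stable than the median peak, 8 touched exon 3. The other 3 were in coding sequence further downstream, where no peak was called. Exon 3 tiles as such had a median of -17.55 kcal/mol (26 tiles), so the energies set the exon apart more than the summits within it. Pairing of miR-342-5p with the same 9 windows had a median of -14.8 kcal/mol (-20.9 to -11.3) and was less stable than that of miR-342-3p at 7 of the 9. The windows are peaks of the miR-342-3p list and no tiles are given for miR-342-5p, so this is no test of a difference between the strands.

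The repeats were distinct at the length of the shortest RNA tags that the labels give, 30 nt, when exact matches were counted. Of the 1381 words of that length in exon 3, 0 occurred again in the TNC mRNA, and the longest repeated word was 17 nt. No other protein-coding gene shared a 30-nt word with the exon. Between repeats, the stretches of 10 codons were identical at 13 to 26 of 30 bases over the 91 pairs, with a median of 63.3%.

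The miR-342-5p list had no peak in TNC. The gene had neither GCACCCC nor the 8mer in its mRNA, and CACCCCA occurred once, in exon 17 at chr9:117808915-117808921. Of 20136 protein-coding genes, 11.4% had at least 1 miR-342-3p peak and 11.5% had at least 1 miR-342-5p peak, so TNC was among 2287 genes in the former list and outside the 2308 of the latter. A peak with a score below 5 would not have been listed, and the scores of both lists were not set against each other. Because the negative control libraries are common to both lists, the difference of 9 and 0 is given as each list's own count.

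Few genes had as many miR-342-3p peaks, the number on which TNC was chosen. The median was 1 peak per gene with a peak. AHNAK, a giant scaffold protein, had 16 and INPP5A, an inositol phosphatase, 10, of which 1 was coding. AHNAK2 had 9, like TNC. In coding sequence, only AHNAK had more (15), and TNC had 1.36 peaks per kb, against a median of 0.622 over the 1382 genes with a coding peak. By that measure 234 genes were denser, and among the 20 genes with 5 or more coding peaks 7 were.

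Counted by exon, the peaks of TNC were the most crowded among the 3 exons with 5 or more. TNC was chosen for its number of peaks and the other 2 exons are far longer, so this rank describes the choice. Among 192137 coding exons of reference transcripts, 3 held 5 or more miR-342-3p peaks. These were exon 3 of TNC with 9 in 1410 nt (6.38 per kb), the large exon of AHNAK with 15 in 17331 nt (0.866 per kb) and that of AHNAK2 with 9 in 16737 nt (0.538 per kb). The exons of AHNAK and AHNAK2 held 0 and 1 copies of UGUGUG, and none of their peaks had the word within 50 nt. Exon 3 of TNC held 7.80 copies per kb, overlapping ones included, against 0.374 per kb over all coding exons.

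Most exons rich in the word held no peak. Of 46 coding exons with 5 or more copies of UGUGUG, overlapping copies counted, 3 held a miR-342-3p peak (6.52%), in TNC, in ZNF227 (4 peaks) and in AGRN (1 peak), against 0.911% of all coding exons (1750 of 192137). Within genes that had a miR-342-3p peak anywhere there were 6 such exons, and the same 3 held a peak, against 5.47% of the 31701 coding exons of these genes. Of these 3 exons, 1 is that of TNC, which was chosen for its peaks. The shares were not computed without it, so they are no comparison of word-rich exons with the rest. The exons were not matched for length. One word-rich exon without a peak belonged to TNXB, the tenascin of loose connective tissue, with 14 copies in a coding exon of 1839 nt and 0 peaks. TNR and TNN, the tenascins of the nervous system and of bone and some tumour stroma, had 2 and 0 copies and 0 peaks. Which of these genes 231HM cells express was not measured here.

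EGF-like modules made up a small share of the summits outside TNC, but a larger one than of the coding bases. The shorter signature of the end of the module was found in 240 of 19357 reference proteins and made up 0.115% of all coding bases. Of the 1950 miR-342-3p summits in reference coding sequence 0.615% (12) lay in a signature, and 5 of these 12 belonged to TNC. Without TNC the share was 0.361% (7 of 1941), and in the miR-342-5p list it was 0.0563% (2 of 3550). The summits outside TNC included 1 each in JAG1, NOTCH2, LAMB2 and ITGB5. FBN1, which encodes the microfibril protein fibrillin-1 and has 38 signatures, had 4 coding miR-342-3p peaks, none in a signature. NOTCH2 had 29 signatures and 5 coding miR-342-3p peaks, of which 3 had UGUGUG within 50 nt, though its partial copies NOTCH2NLA, NOTCH2NLB and NOTCH2NLC share its sequence and reads cannot be assigned with certainty.

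The genes whose counts of coding and 3′UTR peaks in both lists were nearest to those of TNC, among 3812 genes compared on 4 counts, were JAG1, PLXNA1, CD63, DHX15 and DOCK9. JAG1, a Notch ligand that also carries EGF-like repeats, had 6 coding miR-342-3p peaks with scores from 10 to 133 and no miR-342-5p peak in either part. Of these 6 peaks, 2 had a 7mer or 8mer within 50 nt and 0 had UGUGUG, the reverse of the order in TNC. PLXNA1, a semaphorin receptor, had 5 coding peaks with a highest score of 58, and 3 of them had UGUGUG. CD63, a tetraspanin, DHX15, an RNA helicase, and DOCK9, an activator of Cdc42, had 4 each, 1 of them with UGUGUG in every case, and shared their distance to TNC with 3 more genes.

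Genes around tenascin-C were then described from lists by role, beside the same backgrounds of 11.4% and 11.5% of protein-coding genes. Of 19 receptors and binding partners, 4 had a miR-342-3p peak and 3 a miR-342-5p peak. ITGB1, the integrin β1 chain, had the highest score among them, 671, with a second coding peak of 222, both near a seed site. EGFR, to which the EGF-like repeats can bind, had 3 coding miR-342-3p peaks with a highest score of 171, none with a seed site or UGUGUG. ITGAV had 1 in its 3′UTR (score 38) and ITGA2 had 2 coding peaks (highest 46). ITGA5 and ANXA2 had miR-342-5p peaks alone, with highest scores of 76 and 195.

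Among 22 matrix proteins, 8 had a miR-342-3p peak and 10 a miR-342-5p peak, and all 8 had both. FN1, the fibronectin to which tenascin-C binds, had 4 coding miR-342-3p peaks with a highest score of 69 and 7 miR-342-5p peaks with a highest score of 128. THBS1 and LAMC1, which encode thrombospondin-1 and the laminin γ1 chain, each had 6 coding miR-342-3p peaks, with highest scores of 66 and 50. Of the peaks in LAMC1, 3 had a seed site and 0 had UGUGUG. LAMA5, a laminin α chain, had 9 miR-342-5p peaks and 0 of miR-342-3p, the opposite of TNC.

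Of 10 proteases that cleave tenascin-C, MMP14, a membrane-bound matrix metalloproteinase, had 1 miR-342-3p peak with a score of 1083 and 10 miR-342-5p peaks, and MMP1 had 1 miR-342-5p peak. Of 24 regulators of TNC transcription or splicing, 9 had a miR-342-3p peak and 14 a miR-342-5p peak. They include the transcription factors ETS1 (highest miR-342-3p score 75), JUN (106) and SMAD2 (76) and the splicing factor SRSF3 (39). Of 11 downstream signalling genes, 3 had a miR-342-3p peak. These were DKK1, a Wnt inhibitor (139), RHOA, a small GTPase of the actin cytoskeleton (80), and PTK2, the focal adhesion kinase (31). In all, 25 of the 89 listed genes had a miR-342-3p peak, 31 a miR-342-5p peak and 17 both, and genes that the cells do not express could have none. TNC had more miR-342-3p peaks than any of them, but it was chosen on that number, so the rank is no result.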

How the data were processed

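Ago-HITS-CLIP was done in 231HM cells, with 3 libraries per mimic and 9 in all. The authors mapped trimmed reads to hg19 and called enriched regions; the submitters' processing notes name cutadapt 1.13, UMI-tools, TopHat2 2.0.13 and MACS2 2.1.1.20160309. The deposited values are whole-number peak scores and summit positions, in 1 list per mimic with replicates merged. Depth per library and between-library scaling are not given in the sources used here, so precision is limited to counting error.

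Peaks were assigned by midpoint and strand to GENCODE release 44 mapped to GRCh37, which is hg19. A midpoint in several parts counted as 3′UTR, then coding, then 5′UTR. Sequence was read with pysam 0.24.0 and samtools 1.23.1, 50 nt either side of each summit. Duplexes were computed with RNAduplex (ViennaRNA 2.7.2), with tiles of 101 nt every 50 nt. Intervals are Wilson 95% intervals (scipy 1.17.1). EGF-like repeats were found from cysteine spacing in the translated reference transcript. Likeness between genes was the Euclidean distance over log2(count + 1) of 4 peak counts. Search, placement and repeat finding were tested on simulated data.

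TNC, the words, the repeats and the gene lists were chosen with earlier results of these data known. The genes named are TNC, members of those lists, the 5 most like TNC and genes needed to read a count. The latter were chosen after their values were seen.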

Additional observations from a re-analysis of the deposited data

How the results depend on the processing

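Of 38 alternatives to 12 results, 33 moved the value by less than 1.5 times or by less than its interval. Several of these 33 could hardly change. The miR-342-5p number, its density and the overlap of both lists stayed at 0 because TNC had no miR-342-5p peak. The coding share stayed the same because every peak lay within a coding exon. At a score of at least 10, 8 of the 9 miR-342-3p peaks of TNC stayed, above 50 there were 2 and above 100 there was 1. The seed-site share was 0% within 25 nt of the summit and 0% with 8mers alone, 22.2% over the whole peak and 33.3% with 6mers. Likeness on numbers of peaks alone shared 1 of 5 genes with the order given, JAG1. Alternatives for miR-342-5p shares and duplexes gave no value, since TNC had no such peak. Of the alternatives, those for the summits per repeat and the share with UGUGUG were chosen after seeing the data. With 25 nt or a score of at least 10 the UGUGUG share was 66.7% or 75%. No paired analysis was possible because each list holds 1 merged value per peak, without columns for replicates. For the same reason no replicate could be left out. The lists hold scores of 5 and above, and read depth is unknown.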
